A study of Homo sapiens with 6 samples.

Results

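The lysosomal genes examined here were 56 genes of lysosomal acidification, degradation and biogenesis, chosen by name with earlier results of these data known. Their shares beside all genes therefore describe the list and are no test of it. They comprise 16 subunits and accessory proteins of the vacuolar proton pump (V-ATPase), 8 lysosomal membrane proteins, 7 proteases, 8 glycosidases, 5 lipid-handling proteins, 4 sulfatases, 2 sulfatase-modifying factors, 3 genes of enzyme delivery and lysosomal upkeep, and the transcription factors TFEB, TFE3 and MITF. Of these, 54 had a probe set that carries their symbol alone, out of 18836 distinct genes tested, and all 54 stayed in when the dimmest 25% of probe sets was removed. GLB1 and NPC2 lie on probe sets that also carry TMPPE and MIR4709, and neither was analysed here. Where a gene had several probe sets, the one with the highest mean over the 6 arrays was used.

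OV2008 cells, an established human line labelled as ovarian cancer, were transfected with a miR-328-3p mimic or with a negative control microRNA, and total RNA was taken 3 days later. Each group held 3 whole-transcript arrays, called mimic arrays 1 to 3 and control arrays 1 to 3 by the numbers in their titles. The groups follow titles and source names, since another label field gives the control microRNA for the mimic samples as well. Whether the 3 samples of a group came from separate cultures is not stated, so a p-value here reflects no more than sample-to-sample spread, possibly technical. Both groups carried a transfected small RNA, and no untransfected cells were analysed here. A microRNA mimic is a synthetic duplex that loads a chosen microRNA strand into Argonaute, which then represses mRNAs that pair with its seed. The mature strand of the transfected microRNA is shown with its seed, bases 2 to 8, in capitals, in the RefSeq sequence (GRCh38.p14, chr16:67202327-67202348, minus strand).

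hsa-miR-328-3p: cUGGCCCUcucugcccuuccgu

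Lysosomes are the acidic organelles in which cells break down proteins, glycans and lipids. The V-ATPase acidifies them: its cytosolic V1 sector hydrolyses ATP and turns a ring in the membrane-bound V0 sector, which carries protons into the lumen. Most soluble hydrolases receive a mannose 6-phosphate tag in the Golgi and reach the lysosome through mannose 6-phosphate receptors. TFEB, TFE3 and MITF switch many of these genes on through a shared promoter element, the CLEAR motif, and are held in the cytosol when the kinase complex mTORC1 is active.

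Values are on the log2 scale of the deposited table, whose base is inferred, and fold changes hold on that scale. From 807 to 845 values per mimic array and from 832 to 857 per control array exceeded 16, the most that a 16-bit scanner can give in log2, so the values are not plain log2 intensities. Array medians over transcript clusters lay between 4.14 and 4.17 in the mimic arrays and between 4.10 and 4.14 in the control arrays, and array pairs correlated at 0.995 to 0.997 within groups and at 0.993 to 0.995 between groups. Of 5 epithelial markers (EPCAM, KRT8, KRT18, KRT19 and CDH1), all had levels from 11.47 to 14.88, and 4 rose. Of 6 markers of ovarian and Müllerian epithelium, PAX8, WT1, MUC16 and SOX17 lay below 5, and WFDC2 and FOLR1 stood at 5.02 and 5.70, and none of the 6 passed the test. Of the squamous markers with a value, KRT5 stood at 17.01 and KRT14 at 5.30, neither past the test, and SFN stood at 14.32 and rose (log2 difference 0.86, adjusted p = 0.000232). The squamous markers summed to 37.1 to 37.4 in the mimic arrays and 36.0 to 36.1 in the control arrays, and the epithelial markers to 66.8 to 67.2 in the mimic arrays and 65.4 to 65.6 in the control arrays. All 6 leukocyte and macrophage markers (PTPRC, CD14, CSF1R, LYZ, AIF1 and CD163) lay between 3.25 and 4.02, below the array medians, as did 4 of 5 fibroblast markers, with COL1A1 at 4.34. The part of these markers in the results was not tested.

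Of the 54 lysosomal genes, 20 rose, 8 fell and 26 did not pass an adjusted p of 0.05 in the mimic arrays, by limma with p-values adjusted over every probe set tested (Benjamini-Hochberg). That is 51.9% of the genes, beside 18.0% of all distinct genes tested. Without mimic array 2, 35.2% of the 54 and 11.2% of all genes passed, and the risen genes over all genes numbered 831, beside 1358 with all arrays. Those that rose made up 37.0%, beside 7.21% of all genes, and those that fell 14.8%, beside 10.8%. Omitting 1 array left 5, 4 and 5 fallen genes for mimic arrays 1 to 3 and 6, 5 and 5 for control arrays 1 to 3. Over all genes, 3.56% of those with a mean under 6 passed, and the lysosomal genes had a median level of 8.54. Of the 44 with a mean of 6 or more, 26 passed (59.1%), beside 34.4% of all genes at that level, and 40.9% rose, beside 13.6%. The fallen genes were 18.2% of these 44, beside 20.9% of all genes at that level. The median log2 difference of the 54 was 0.10, against 0.01 over all genes. With each array centred on its median these were 0.054 and -0.03. In 27 of the 54 genes, all 3 mimic arrays lay above all 3 control arrays while in 12 all lay below. Over all genes the corresponding shares were 19.2% above and 22.4% below. In a bulk sample, fewer cells of a type and less RNA per cell cannot be told apart.

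**Figure D1:**
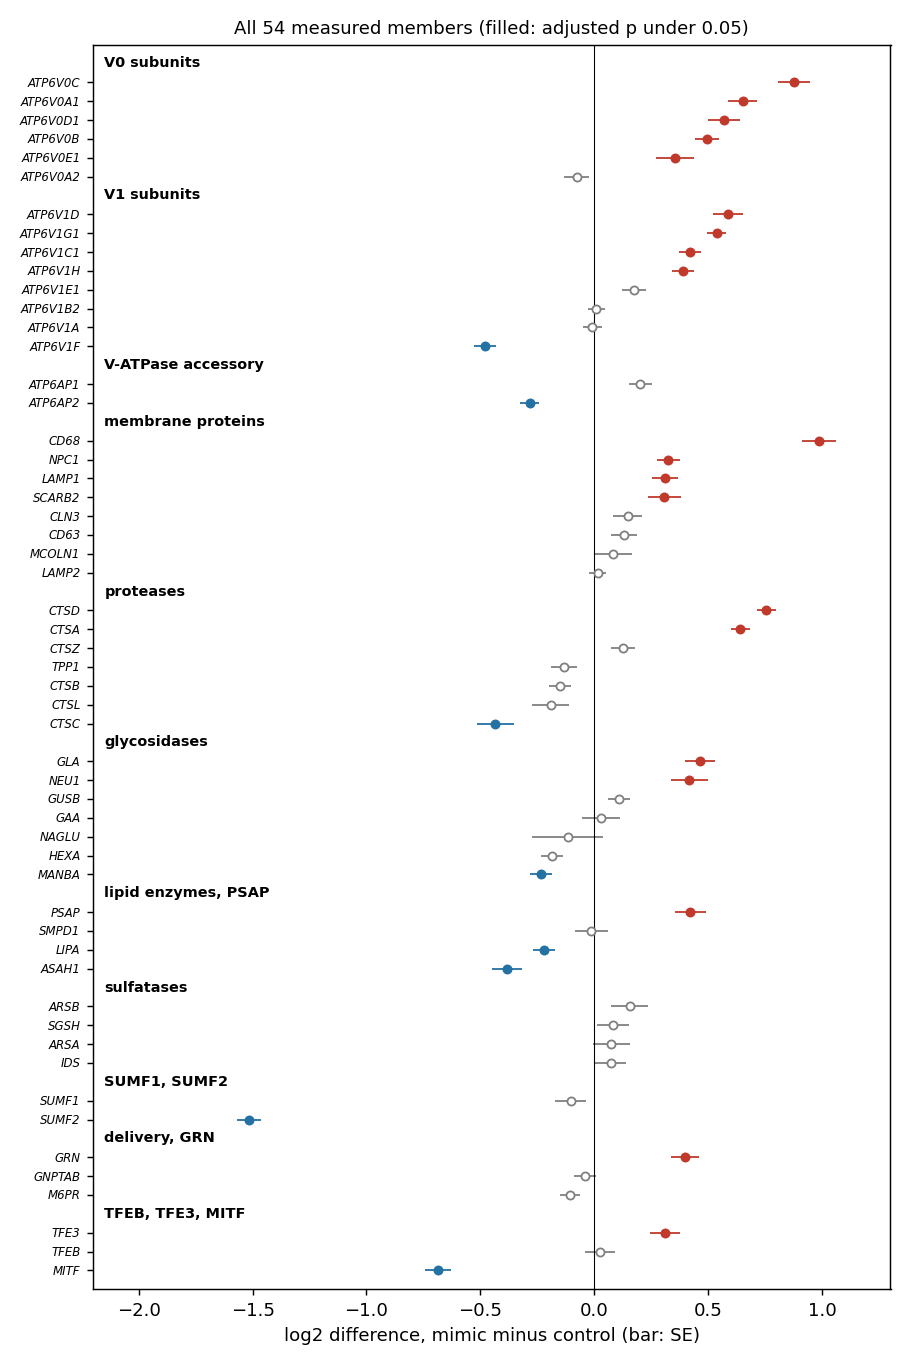
Log2 difference, mimic minus control, of the 54 measured lysosomal genes by class, with bars of 1 standard error. Filled points passed an adjusted p of 0.05, red for genes that rose and blue for genes that fell, and open points did not pass. SUMF2 stands apart at -1.52, and the V0 subunits other than ATP6V0A2 lie between 0.35 and 0.88.

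Most of the 6 subunits examined in the membrane sector of the proton pump rose. Of 6 V0 subunits, 5 rose (83.3%, beside 7.21% of all genes) and none fell, with a median log2 difference of 0.53. At a mean of 6 or more, 13.6% of all genes rose. ATP6V0C, the proteolipid that forms the bulk of the proton-carrying ring, measured 7.63, 7.66 and 7.66 in the mimic arrays, against 6.88, 6.80 and 6.65 in the control arrays. The difference was 1.84-fold, higher with the mimic (log2 difference 0.88 ± 0.0713 SE, adjusted p = 0.00084), and the groups were far apart relative to their spread. ATP6V0A1, an isoform of the a subunit that forms the proton path, measured 10.03, 9.80 and 9.94 in the mimic arrays, against 9.27, 9.31 and 9.24 in the control arrays. This is a 1.57-fold difference (log2 difference 0.65 ± 0.0648 SE, adjusted p = 0.00168) without overlap between the groups. The central stalk subunit ATP6V0D1 measured 7.61, 7.51 and 7.55 in the mimic arrays, against 6.90, 7.10 and 6.96 in the control arrays, again with every mimic array above every control array (log2 difference 0.57 ± 0.0706 SE, adjusted p = 0.00372). ATP6V0B, the second proteolipid of the ring, stood at 8.19, 8.14 and 8.06 in the mimic arrays, against 7.62, 7.67 and 7.61 in the control arrays (log2 difference 0.49 ± 0.0543 SE, adjusted p = 0.00239). The small subunit ATP6V0E1, with mimic values above the 16-bit limit, measured 16.18, 16.23 and 16.44 in the mimic arrays, against 15.94, 16.03 and 15.82 in the control arrays. Its groups did not overlap, and it passed narrowly (log2 difference 0.35 ± 0.0846 SE, adjusted p = 0.0437). The call failed on omission of any 1 array (adjusted p 0.0643, 0.0987 and 0.0798 for mimic arrays 1 to 3, 0.0929, 0.0555 and 0.134 for control arrays 1 to 3), and with quantile normalization (0.0564), median centring (0.0743) and no variance trend (0.0691). ATP6V0A2, the a isoform best known from the Golgi and endosomes, did not pass at -0.08 (adjusted p = 0.47). Nor did TCIRG1 (0.04, adjusted p = 0.805) and ATP6V0E2 (0.08, adjusted p = 0.576), V0 isoforms counted below with other V-ATPase genes. RefSeq lists 4 pseudogenes named after ATP6V0C and 4 after ATP6V0E1, and signal shared with them was not tested.

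The V1 sector was mixed. Of 8 subunits, 4 rose (50%, beside 7.21% of all genes), 1 fell (12.5%, beside 10.8%) and 3 did not pass, with a median of 0.28. At a mean of 6 or more, 13.6% of all genes rose and 20.9% fell. Other V1 isoforms are counted below with other V-ATPase genes. The rotor subunit ATP6V1D measured 9.58, 9.45 and 9.42 in the mimic arrays, against 8.82, 8.92 and 8.95 in the control arrays and was 1.5-fold higher (log2 difference 0.59 ± 0.0641 SE, adjusted p = 0.00237). A dimmer probe set for the same gene stood at 0.54 with a larger error of 0.158 and did not pass (adjusted p = 0.0844). ATP6V1G1, part of the peripheral stalks, measured 10.18, 10.27 and 10.24 in the mimic arrays, against 9.69, 9.68 and 9.71 in the control arrays (log2 difference 0.54 ± 0.0422 SE, adjusted p = 0.000734). ATP6V1C1, the collar subunit that joins the stalks to V0, stood at 11.16, 11.21 and 11.20 in the mimic arrays, against 10.82, 10.69 and 10.80 in the control arrays (log2 difference 0.42 ± 0.0479 SE, adjusted p = 0.00268). ATP6V1H, a regulatory subunit, stood at 7.97, 7.95 and 7.91 in the mimic arrays, against 7.58, 7.56 and 7.51 in the control arrays (log2 difference 0.39 ± 0.0482 SE, adjusted p = 0.00368). For each of these 4 subunits, all mimic arrays lay above all control arrays. ATP6V1F, which sits beside ATP6V1D in the rotor, went the other way: it measured 10.42, 10.28 and 10.37 in the mimic arrays, against 10.83, 10.83 and 10.85 in the control arrays and was 1.4-fold lower (log2 difference -0.48 ± 0.0481 SE, adjusted p = 0.00169). The catalytic head did not pass: ATP6V1A, which hydrolyses ATP, stood at -0.01 (adjusted p = 0.93) and its partner ATP6V1B2 at 0.01 (adjusted p = 0.931), with overlapping groups. The stalk subunit ATP6V1E1 stood at 0.18 (adjusted p = 0.0946). ATP6V1G1 and ATP6V1F also have named pseudogenes, 7 and 1.

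Of 2 accessory proteins of the pump, ATP6AP2 fell (50%, beside 10.8% of all genes) and ATP6AP1 did not pass. ATP6AP2, also known as the prorenin receptor, measured 10.42, 10.42 and 10.38 in the mimic arrays, against 10.72, 10.70 and 10.65 in the control arrays and fell (log2 difference -0.28 ± 0.0401 SE, adjusted p = 0.00611). ATP6AP1, which takes part in V0 assembly, measured 6.85, 6.85 and 6.83 in the mimic arrays, against 6.66, 6.65 and 6.61 in the control arrays. Its mimic arrays all lay above its control arrays, as in 19.2% of all genes, but its difference of 0.20 missed the threshold (adjusted p = 0.0527).

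**Figure D2:**
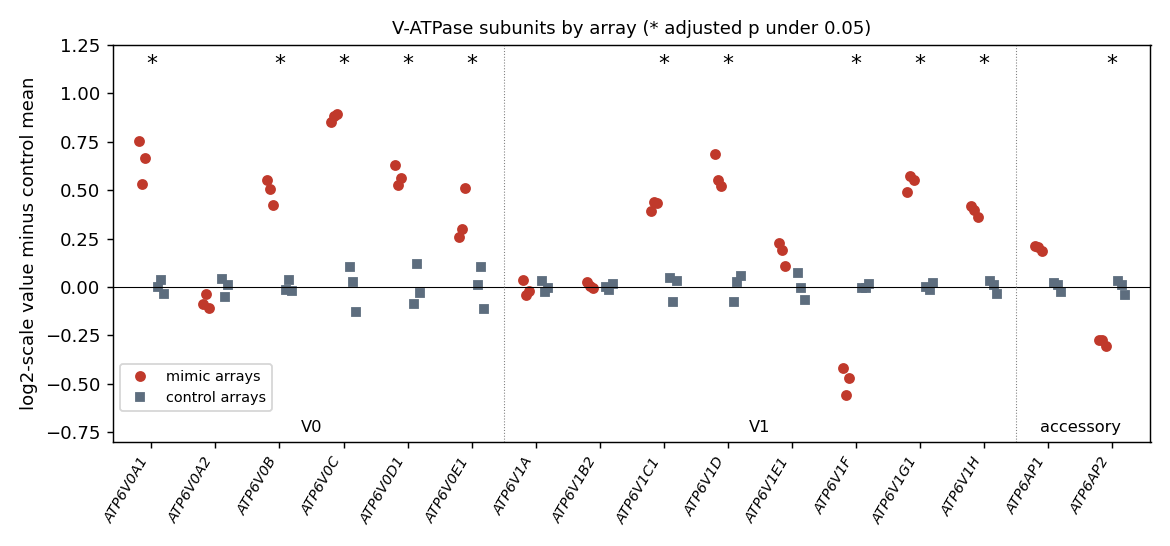
Values of the 16 V-ATPase genes on each array, as the log2-scale value minus the mean of the 3 control arrays, with mimic arrays as circles and control arrays as squares. An asterisk marks genes past an adjusted p of 0.05. The 5 asterisked V0 genes have every mimic array above every control array, while ATP6V1A and ATP6V1B2 stay close to 0 and ATP6V1F lies below all its control arrays.

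Among 8 lysosomal membrane proteins, 4 rose (50%, beside 7.21% of all genes) and none fell, and all 8 had positive differences (median 0.23). CD68, a heavily glycosylated LAMP-family protein abundant in macrophages, changed most. It measured 9.07, 9.07 and 8.93 in the mimic arrays, against 8.16, 7.97 and 7.98 in the control arrays and was 1.98-fold higher (log2 difference 0.99 ± 0.0731 SE, adjusted p = 0.000618). The lowest mimic array lay 0.77 above the highest control array. The 6 leukocyte and macrophage markers summed to 21.6 to 22.0 in the mimic arrays and 21.2 to 21.6 in the control arrays, without overlap before rounding, and CD14, too dim to be tested, averaged 3.50 in the mimic arrays and 3.25 in the control arrays. Their part in the CD68 difference was not tested. NPC1, which exports cholesterol from the lysosome, stood at 8.41, 8.33 and 8.32 in the mimic arrays, against 8.01, 8.05 and 8.02 in the control arrays (log2 difference 0.33 ± 0.049 SE, adjusted p = 0.00786). LAMP1, a major glycoprotein of the lysosomal membrane, stood at 7.58, 7.55 and 7.54 in the mimic arrays, against 7.23, 7.33 and 7.18 in the control arrays (log2 difference 0.31 ± 0.0575 SE, adjusted p = 0.0173). Its groups did not overlap, but it no longer passed on omission of mimic array 1 (adjusted p = 0.066), mimic array 2 (adjusted p = 0.0693), control array 1 (adjusted p = 0.0532) and control array 3 (adjusted p = 0.0671). SCARB2, the receptor that carries glucocerebrosidase to the lysosome, measured 9.80, 9.75 and 9.78 in the mimic arrays, against 9.52, 9.32 and 9.56 in the control arrays (log2 difference 0.31 ± 0.0714 SE, adjusted p = 0.0402). The mimic arrays all lay higher, but the call failed on omission of mimic array 1 (adjusted p = 0.123), mimic array 2 (adjusted p = 0.108), mimic array 3 (adjusted p = 0.101), control array 1 (adjusted p = 0.0648) and control array 3 (adjusted p = 0.0544), and with median centring (0.0906), no filter on dim probe sets (0.0527) and no variance trend (0.0636). The remaining 4 did not pass: CLN3, the protein lost in Batten disease, stood at 0.15, the tetraspanin CD63 at 0.13, the cation channel MCOLN1 at 0.08 and LAMP2 at 0.01. LAMP2 was bright and tightly measured, at 13.64 ± 0.0352 in the mimic arrays and 13.62 ± 0.00571 in the control arrays (SD, n = 3 each).

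Of 7 lysosomal proteases, 2 rose (28.6%, beside 7.21% of all genes), 1 fell (14.3%, beside 10.8%) and 4 did not pass. The aspartic protease CTSD and the serine carboxypeptidase CTSA rose, and the cysteine cathepsin CTSC fell. CTSD measured 11.54, 11.47 and 11.54 in the mimic arrays, against 10.76, 10.74 and 10.79 in the control arrays and was 1.69-fold higher (log2 difference 0.75 ± 0.0414 SE, adjusted p = 0.000232). CTSA, which shields the sialidase NEU1 from degradation, measured 10.32, 10.27 and 10.27 in the mimic arrays, against 9.63, 9.67 and 9.63 in the control arrays and was 1.56-fold higher (log2 difference 0.64 ± 0.0407 SE, adjusted p = 0.000372). The lowest mimic array lay above the highest control array by 0.67 for CTSD and by 0.59 for CTSA. CTSC, a dipeptidyl peptidase that activates granule proteases in immune cells, fell. It measured 9.56, 9.32 and 9.38 in the mimic arrays, against 9.73, 9.92 and 9.92 in the control arrays (log2 difference -0.44 ± 0.0813 SE, adjusted p = 0.0182), without overlap. It no longer passed on omission of mimic array 2 (adjusted p = 0.068), mimic array 3 (adjusted p = 0.0608), control array 2 (adjusted p = 0.0633) and control array 3 (adjusted p = 0.0738). Of the other cysteine cathepsins, CTSL stood at -0.19 (adjusted p = 0.221), CTSB at -0.15 (adjusted p = 0.105) and CTSZ at 0.13 (adjusted p = 0.216). The tripeptidyl peptidase TPP1 stood at -0.13 (adjusted p = 0.206).

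Of 7 measured glycosidases, 2 rose (28.6%, beside 7.21% of all genes) and 1 fell (14.3%, beside 10.8%). GLA, the alpha-galactosidase deficient in Fabry disease, measured 13.00, 12.85 and 12.78 in the mimic arrays, against 12.43, 12.35 and 12.45 in the control arrays and was 1.38-fold higher (log2 difference 0.46 ± 0.0653 SE, adjusted p = 0.00609). NEU1, the sialidase that works in a complex with CTSA, measured 6.26, 6.21 and 6.02 in the mimic arrays, against 5.73, 5.80 and 5.71 in the control arrays (log2 difference 0.42 ± 0.0819 SE, adjusted p = 0.0218). The 8 probe sets for NEU1, 7 of them on alternative haplotypes, had log2 differences of 0.42 at every probe set, and they share sequence. Every mimic array lay above every control array, but NEU1 failed on omission of mimic array 1 (adjusted p = 0.0743), mimic array 2 (adjusted p = 0.0873), control array 1 (adjusted p = 0.064) and control array 3 (adjusted p = 0.0829). MANBA, the beta-mannosidase, measured 8.23, 8.24 and 8.17 in the mimic arrays, against 8.44, 8.48 and 8.42 in the control arrays and fell (log2 difference -0.23 ± 0.0479 SE, adjusted p = 0.0254). It lay lower in all mimic arrays, yet did not pass on omission of any 1 array (adjusted p 0.069, 0.0758 and 0.073 for mimic arrays 1 to 3, 0.064, 0.0781 and 0.0691 for control arrays 1 to 3), and with quantile normalization (0.0509). HEXA, the alpha chain of beta-hexosaminidase, stood at -0.19 with no overlap between groups, but did not pass (adjusted p = 0.0584). GUSB stood at 0.11 and GAA, the acid alpha-glucosidase, at 0.03. NAGLU varied most between replicates, at 5.08, 5.14 and 5.62 in the mimic arrays, against 5.26, 5.51 and 5.42 in the control arrays, and its groups overlapped (log2 difference -0.12, adjusted p = 0.724).

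Among 4 measured lipid-handling genes, PSAP rose (25%, beside 7.21% of all genes) and both ASAH1 and LIPA fell (50%, beside 10.8%). PSAP, the precursor of the saposins that present sphingolipids to their hydrolases, measured 11.69, 11.66 and 11.55 in the mimic arrays, against 11.11, 11.32 and 11.21 in the control arrays (log2 difference 0.42 ± 0.0684 SE, adjusted p = 0.0106). ASAH1, acid ceramidase, measured 10.07, 10.08 and 10.07 in the mimic arrays, against 10.60, 10.36 and 10.41 in the control arrays (log2 difference -0.38 ± 0.0666 SE, adjusted p = 0.0138), and failed on omission of mimic array 1 (adjusted p = 0.0545) and mimic array 2 (adjusted p = 0.0545). LIPA, the acid lipase that frees cholesterol from its esters, measured 8.53, 8.50 and 8.47 in the mimic arrays, against 8.78, 8.67 and 8.71 in the control arrays (log2 difference -0.22 ± 0.0489 SE, adjusted p = 0.0342). The groups did not overlap for PSAP, ASAH1 or LIPA, but LIPA failed on omission of any 1 array (adjusted p 0.0816, 0.112 and 0.0943 for mimic arrays 1 to 3, 0.0854, 0.052 and 0.105 for control arrays 1 to 3), and with no filter on dim probe sets (0.0521) and no variance trend (0.0633). SMPD1, acid sphingomyelinase, was dim, at 4.77 ± 0.0776 in the mimic arrays and 4.79 ± 0.0427 in the control arrays (SD, n = 3 each). LIPA lies within a cluster of IFIT genes in RefSeq, and signal shared with them was not tested. Likewise, ATP6V1D overlaps GPHN, SCARB2 overlaps FAM47E, NPC1 overlaps RMC1, CTSA overlaps PLTP and GLA overlaps RPL36A-HNRNPH2, and LAMP1 has 1 named pseudogene.

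**Figure D3:**
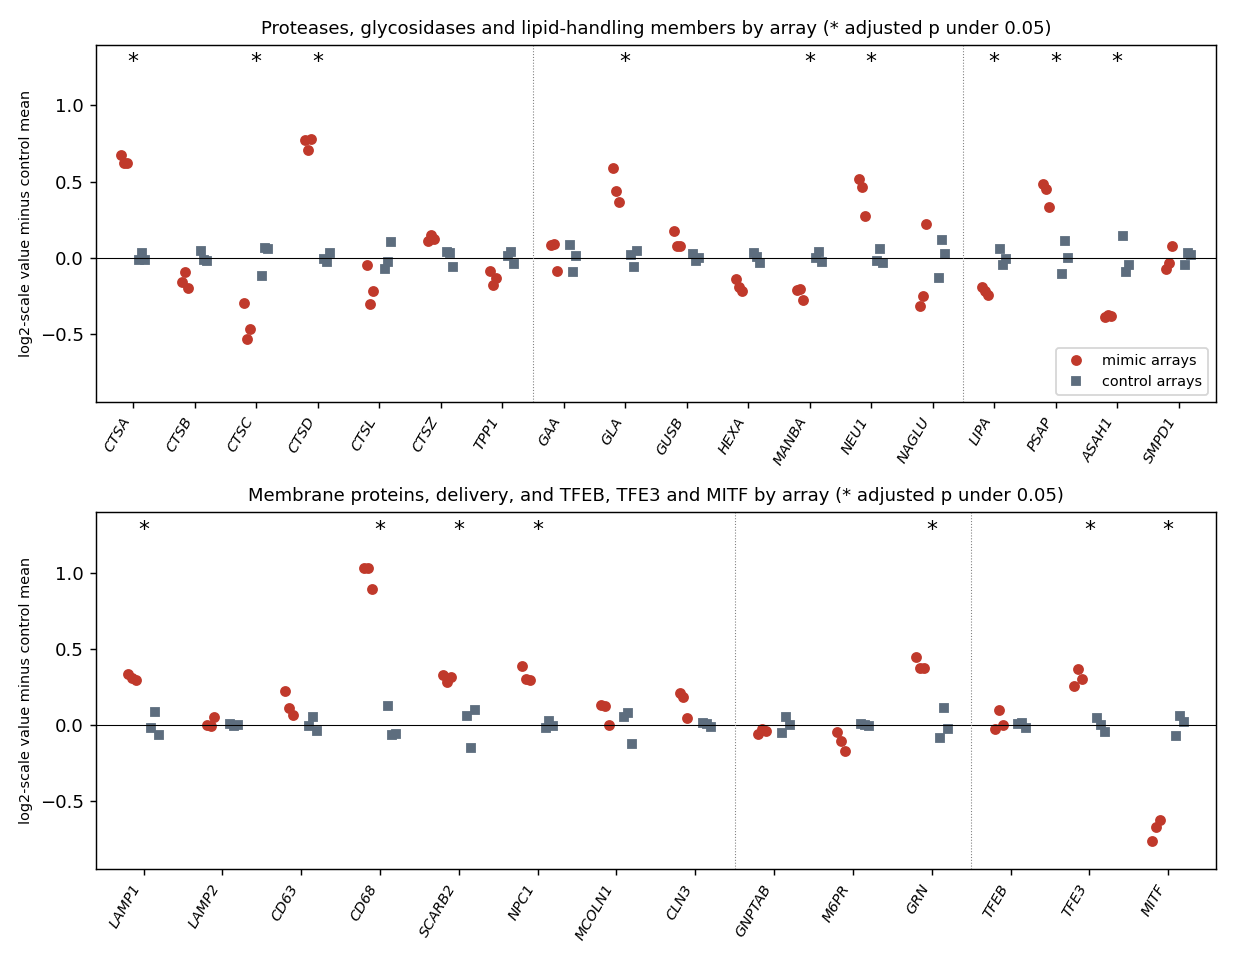
Values on each array of the 18 proteases, glycosidases and lipid-handling genes (upper panel) and of the 14 membrane, delivery and transcription factor genes (lower panel), as the log2-scale value minus the control mean, with mimic arrays as circles and control arrays as squares. An asterisk marks an adjusted p under 0.05. CTSA, CTSD and CD68 stand above all their control arrays by the widest margins, and MITF lies lowest.

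The largest change among the 54 genes was in SUMF2. SUMF1 is the endoplasmic reticulum enzyme that converts a cysteine of every sulfatase into the catalytic formylglycine, and SUMF2 is its paralogue, which lacks that activity and binds sulfatases. SUMF2 measured 9.57, 9.67 and 9.52 in the mimic arrays, against 11.10, 11.14 and 11.07 in the control arrays. The mimic arrays were 2.86-fold lower (log2 difference -1.52 ± 0.0528 SE, adjusted p = 7.39e-05), with the highest mimic array 1.40 below the lowest control array. SUMF1 was dim, at 3.79, 3.89 and 3.78 in the mimic arrays, against 3.88, 3.97 and 3.93 in the control arrays, below the array medians, with overlapping groups and a difference of -0.10 (adjusted p = 0.42). None of the 4 sulfatases passed. Over all genes 18.0% passed, with 3.56% of those with a mean under 6 and 34.4% of those at 6 or more. ARSB, which acts on dermatan sulfate, stood at 0.16 (adjusted p = 0.314), SGSH, the heparan sulfamidase, at 0.08 (adjusted p = 0.563), ARSA, which acts on sulfatide, at 0.07 (adjusted p = 0.655) and IDS, the iduronate sulfatase, at 0.07 (adjusted p = 0.593). The unadjusted p of these 4 ran from 0.1 to 0.39. Their mean levels ran from 4.03 to 6.19, which limits what could be detected. SUMF2 overlaps PHKG1 in RefSeq, and signal shared between them was not tested.

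**Figure D4:**
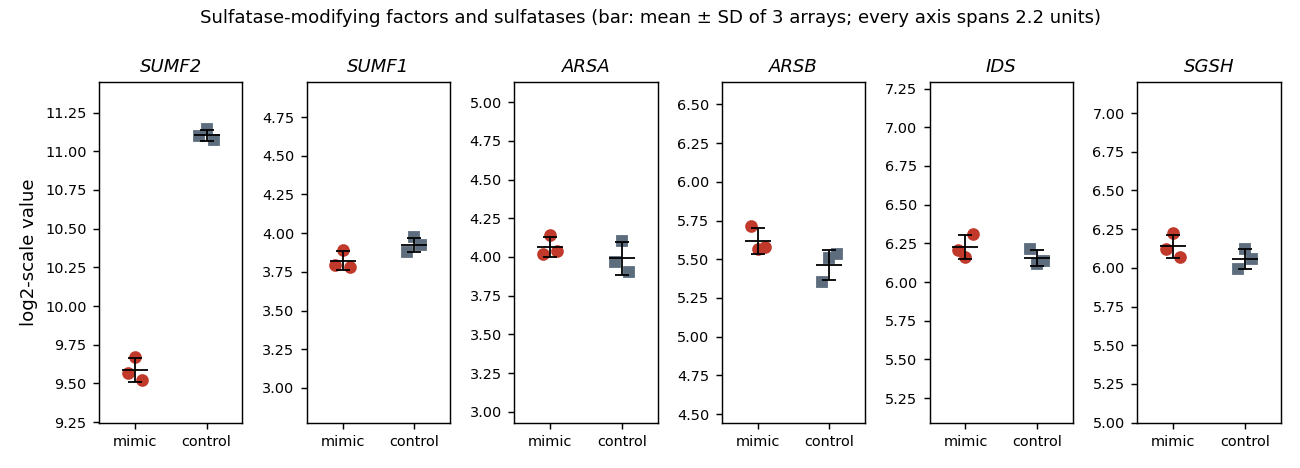
Log2-scale values of SUMF2, SUMF1 and the 4 sulfatases on each mimic array (left in each panel, circles) and control array (right, squares), with the mean and SD of 3 arrays. The axes differ in position but span equal lengths. The SUMF2 groups are separated by 1.52 units between their means, while the groups of SUMF1, ARSA, IDS and SGSH overlap and those of ARSB lie apart narrowly.

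Of 3 genes of delivery and upkeep, GRN rose (33.3%, beside 7.21% of all genes). Progranulin, its product, is a secreted and lysosomal glycoprotein, and GRN measured 9.70, 9.63 and 9.62 in the mimic arrays, against 9.17, 9.36 and 9.23 in the control arrays (log2 difference 0.40 ± 0.0629 SE, adjusted p = 0.00957). GNPTAB, the enzyme that starts the mannose 6-phosphate tag, stood at -0.04 (adjusted p = 0.674). M6PR, the cation-dependent mannose 6-phosphate receptor, stood at -0.11 (adjusted p = 0.194), although its mimic arrays all lay below its control arrays.

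The 3 transcription factors differed in level and in direction. MITF, the bright member, measured 9.07, 9.17 and 9.21 in the mimic arrays, against 9.76, 9.89 and 9.85 in the control arrays and was 1.61-fold lower (log2 difference -0.69 ± 0.0578 SE, adjusted p = 0.000933). TFE3 measured 5.73, 5.84 and 5.78 in the mimic arrays, against 5.52, 5.47 and 5.43 in the control arrays and rose (log2 difference 0.31 ± 0.0653 SE, adjusted p = 0.0284). It did not overlap between groups, but the call failed on omission of any 1 array (adjusted p 0.0615, 0.109 and 0.0731 for mimic arrays 1 to 3, 0.0548, 0.0781 and 0.102 for control arrays 1 to 3), and with median centring (0.0545). TFEB stood at 4.15, 4.27 and 4.17 in the mimic arrays, against 4.18, 4.18 and 4.15 in the control arrays, close to the array medians, with overlapping groups and a difference of 0.03 (adjusted p = 0.876). The arrays measure mRNA, and where these factors are in the cell was not measured.

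These factors bind the CLEAR motif, searched as the E-box CACGTG with GT before and AC after it. Both are palindromes, so a match on one strand is a match on the other, and every full motif also counts as an E-box. RefSeq start windows (GRCh38.p14), from 250 bases before to 50 after a gene's start, were given for 42 of the 56 genes, in 61 windows. At least 1 window of 14 of the 42 genes held an E-box (33.3%), against 8.77% of all 27305 genes, and 3 held the full motif (7.14%), against 0.421%. By window these shares were 24.6% against 7.26% for the E-box and 4.92% against 0.353% for the full motif. The motif was searched because promoters of many such genes are known to share it, so these shares are no test. The 27305 genes were not limited to those tested on the arrays. The E-box was found for 7 of 16 genes that rose, 0 of 6 that fell and 7 of 18 that did not pass, and the full motif for ATP6V1G1, which rose, and for GAA and MCOLN1, which did not pass. For each of the 7 genes that rose, 1 site is shown with 12 bases on either side and the E-box in capitals. The 2 other sites with the full motif follow. ARSB, CD63, CLN3, M6PR and SUMF1, which did not pass, also hold an E-box and are not shown.

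ATP6V0B: ccggcgtggggtCACGTGgtaccggcgcat
ATP6V0D1: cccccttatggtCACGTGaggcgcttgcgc
ATP6V1G1: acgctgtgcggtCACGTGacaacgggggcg
CTSA: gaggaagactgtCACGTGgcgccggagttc
CTSD: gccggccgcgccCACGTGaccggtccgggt
LAMP1: accaggccgggtCACGTGggtccagggtca
NEU1: atgctgcgtgatCACGTGggaggagatgag
GAA: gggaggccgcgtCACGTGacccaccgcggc
MCOLN1: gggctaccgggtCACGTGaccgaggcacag

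All 9 sites lie before the start, by 14 to 192 bases. All 9 carry a T before or an A after the E-box, which the full motif fixes for ATP6V1G1, GAA and MCOLN1. Of the E-box genes not shown, ARSB, CLN3, M6PR and SUMF1 carry such a flank too, and CD63 does not. The share of such flanks over all genes was not counted. The site of ATP6V0B lies at chr1:43974891-43974920 (plus strand), that of ATP6V0D1 at chr16:67481199-67481228 (minus strand) and that of ATP6V1G1 at chr9:114587699-114587728 (plus strand). The sites of the proteases lie at chr20:45891281-45891310 (plus strand) for CTSA and chr11:1763957-1763986 (minus strand) for CTSD. LAMP1 holds 6 E-boxes in its window, the first at chr13:113297035-113297064 (plus strand). ATP6V0B, CTSA, GAA and MCOLN1 hold 2 each. NEU1 has its site at chr6:31862930-31862959 (minus strand), GAA at chr17:80101493-80101522 (plus strand) and MCOLN1 at chr19:7522598-7522627 (plus strand). A match to these letters describes the sequence, and binding was not measured.

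Further genes of the same pathways were counted in the same way. They came from 6 lists chosen by function, also with earlier results of these data known. The shares given beside them are over all genes tested, dim ones included. At a mean of 6 or more, 13.6% of all genes rose and 20.9% fell. Median levels of the lists ran from 5.39 (V-ATPase) to 7.68 (delivery), with the hydrolases at 7.60. Of 29 other lysosomal hydrolases and cofactors, 1 rose, 11 fell and 17 did not pass (median log2 difference -0.17), so 37.9% fell, beside 10.8% of all genes. SIAE, a sialic acid esterase, averaged 7.95 ± 0.0373 in the mimic arrays and 9.27 ± 0.0707 in the control arrays (SD, n = 3 each), a log2 difference of -1.32, adjusted p = 9.69e-05. PRCP, a carboxypeptidase, averaged 9.11 ± 0.0899 in the mimic arrays and 10.37 ± 0.108 in the control arrays (SD, n = 3 each), a log2 difference of -1.26, adjusted p = 0.000267. LGMN, the asparaginyl endopeptidase legumain, averaged 8.43 ± 0.0322 in the mimic arrays and 9.50 ± 0.0758 in the control arrays (SD, n = 3 each), a log2 difference of -1.06, adjusted p = 0.000189. These 3 fell more than any of the 54 except SUMF2. The 1 that rose was the phospholipase PLA2G15 (0.42, adjusted p = 0.0136), which failed on omission of mimic array 1 (adjusted p = 0.0541) and mimic array 2 (adjusted p = 0.0611). Of 11 other sulfatases, 3 fell (27.3%, beside 10.8% of all genes) and none rose: SULF2 (-0.37, adjusted p = 0.0155), ARSK (-0.32, adjusted p = 0.0474) and ARSJ (-0.23, adjusted p = 0.0406). ARSK failed on omission of any 1 array (adjusted p 0.0943, 0.103 and 0.0584 for mimic arrays 1 to 3, 0.0786, 0.13 and 0.12 for control arrays 1 to 3), and with quantile normalization (0.0823), no filter on dim probe sets (0.0613) and no variance trend (0.0644). ARSJ failed on omission of any 1 array (adjusted p 0.103, 0.077 and 0.0797 for mimic arrays 1 to 3, 0.0868, 0.0872 and 0.139 for control arrays 1 to 3), and with quantile normalization (0.054), no filter on dim probe sets (0.0593) and no variance trend (0.0725). SULF2 failed on omission of mimic array 1 (adjusted p = 0.0603), mimic array 2 (adjusted p = 0.0582), control array 1 (adjusted p = 0.0501) and control array 3 (adjusted p = 0.0627).

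Of 13 other V-ATPase isoforms and assembly factors, none rose and 3 fell (23.1%, beside 10.8% of all genes): ROGDI (-0.44, adjusted p = 0.00564), the isoform ATP6V1B1 (-0.32, adjusted p = 0.0458) and DMXL1 (-0.26, adjusted p = 0.0192). ATP6V1B1 failed on omission of any 1 array (adjusted p 0.138, 0.151 and 0.0546 for mimic arrays 1 to 3, 0.0782, 0.126 and 0.117 for control arrays 1 to 3), and with no filter on dim probe sets (0.0518). DMXL1 failed on omission of mimic array 1 (adjusted p = 0.0686), mimic array 2 (adjusted p = 0.0784), control array 2 (adjusted p = 0.0633) and control array 3 (adjusted p = 0.0779). Of 23 other membrane genes, 3 rose and 3 fell, or 13.0% each way, beside 7.21% risen and 10.8% fallen over all genes. OSTM1, the partner subunit of the chloride transporter CLCN7, averaged 9.07 ± 0.13 in the mimic arrays and 7.68 ± 0.0491 in the control arrays (SD, n = 3 each) and rose by more than any of the 54 (1.39, adjusted p = 0.00022). The sialomucin CD164 rose (0.36, adjusted p = 0.00156), as did the arginine sensor SLC38A9 (0.26, adjusted p = 0.016), which failed on omission of mimic array 1 (adjusted p = 0.0502), mimic array 2 (adjusted p = 0.0715), mimic array 3 (adjusted p = 0.051) and control array 2 (adjusted p = 0.0535). TMEM106B fell (-0.53, adjusted p = 0.00204), as did TMEM192 (-0.37, adjusted p = 0.0262) and LAMP3 (-0.24, adjusted p = 0.0228). TMEM192 failed on omission of mimic array 1 (adjusted p = 0.0763), mimic array 3 (adjusted p = 0.0745), control array 1 (adjusted p = 0.0621), control array 2 (adjusted p = 0.0531) and control array 3 (adjusted p = 0.0939). LAMP3 failed on omission of any 1 array (adjusted p 0.0788, 0.0713 and 0.0655 for mimic arrays 1 to 3, 0.0657, 0.0577 and 0.0845 for control arrays 1 to 3).

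Among 15 other delivery genes, 3 rose (20.0%, beside 7.21% of all genes) and 2 fell (13.3%, beside 10.8%). IGF2R, the cation-independent mannose 6-phosphate receptor, averaged 7.93 ± 0.0295 in the mimic arrays and 7.30 ± 0.0552 in the control arrays (SD, n = 3 each), a log2 difference of 0.63, adjusted p = 0.000907. The adaptor GGA2 also rose (0.36, adjusted p = 0.00848), although its other probe set stood at -0.0019 (adjusted p = 0.995). VPS33A rose too (0.36, adjusted p = 0.0143) and failed on omission of mimic array 1 (adjusted p = 0.0568), mimic array 2 (adjusted p = 0.0527) and control array 3 (adjusted p = 0.0512). VPS41, of the lysosome tethering complex HOPS as VPS33A is, fell (-0.62, adjusted p = 0.00171), as did the retromer subunit VPS26A (-0.52, adjusted p = 0.00481). Of 17 genes of mTORC1 and TFEB regulation, 5 rose (29.4%, beside 7.21% of all genes) and 1 fell (5.88%, beside 10.8%). The Rag GTPase RRAGC rose (0.64, adjusted p = 0.00871), as did PPP3CA (0.43, adjusted p = 0.00537) and PPP3R1 (0.41, adjusted p = 0.00718). These are a catalytic and a regulatory subunit of calcineurin, a phosphatase of TFEB. Another catalytic subunit, PPP3CB, did not pass (-0.01, adjusted p = 0.949). FNIP1 (0.37, adjusted p = 0.00329) and FNIP2 (0.27, adjusted p = 0.0456) were the others that rose. LAMTOR2, of the complex that anchors the Rag GTPases, fell (-0.37, adjusted p = 0.0182) and failed on omission of mimic array 1 (adjusted p = 0.0645), mimic array 2 (adjusted p = 0.0627), mimic array 3 (adjusted p = 0.0566), control array 2 (adjusted p = 0.0612) and control array 3 (adjusted p = 0.0716).

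**Figure D5:**
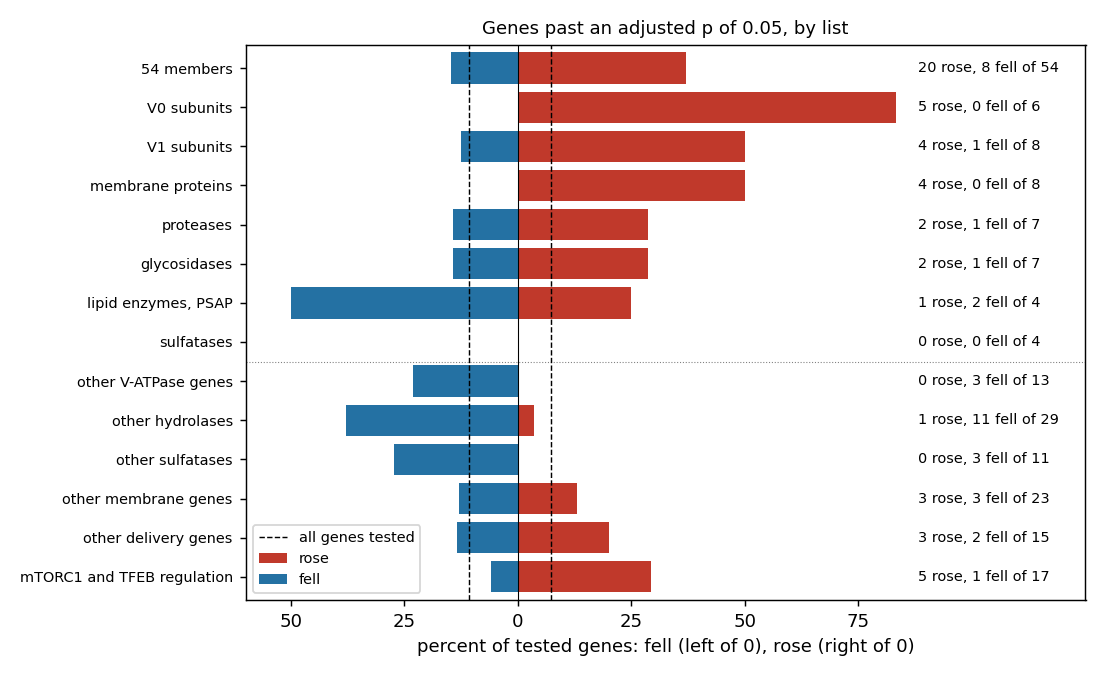
Percent of tested genes that rose (right of 0, red) or fell (left of 0, blue) past an adjusted p of 0.05, for the 54 lysosomal genes and their main classes (above the dotted line) and for the 6 further lists (below it), with the counts at the right. Dashed lines mark the shares over all genes tested, 7.21% risen and 10.8% fallen. Risen genes outnumber fallen ones among the V0 and V1 subunits and membrane proteins, and fallen ones outnumber risen ones among lipid-handling genes and the other hydrolases, V-ATPase genes and sulfatases.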

How the data were processed

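RNA from 3 miR-328-3p mimic and 3 negative control samples of OV2008 cells was measured on whole-transcript arrays, from 100 ng of total RNA per the labels' protocols. The deposited table gives 1 log2 value per probe set and array, normalized by the authors. The log base is inferred from values of 1.62 to 19.9, and MAS5 is the only tool in the submitters' processing notes, with no role. How probe sets were summarized is not stated. The build is not given in the sources used here. Precision is set by the 3 arrays per group.

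Of 70523 probe sets, 67528 transcript clusters were kept, and the 50646 above the dimmest 25% were tested. Symbols came from the platform annotation (23781 clusters with 1 symbol, 1543 with several, 42204 unnamed), and genes were named only from clusters with 1 symbol. All 56 symbols matched RefSeq. Mimic and control arrays were tested by limma 3.58.1 under R 4.3.3 (linear model, empirical Bayes with trend, two-sided, Benjamini-Hochberg over all probe sets tested, threshold 0.05). All adjusted p are from this test. An exact permutation test of 3 against 3 cannot go below 0.1. The fit was tested on simulated data. Members and lists were chosen with earlier results of these data known, and the split at a mean of 6 after seeing the values. All members are named, and from each further list up to 3 genes with the largest rise and fall among those that passed. TCIRG1, ATP6V0E2, PPP3CB, FNIP1 and FNIP2 were added to these, without their values under the alternatives. Whether the sample numbers pair the arrays was not settled. Same-numbered deviations from group means correlated at 0.14, -0.05 and 0.18, and differently numbered ones at -0.226 to 0.115. The main fit used no pairing. A total of 13 alternatives were run. Figures used matplotlib 3.10.9 in Python 3.11.15.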

Additional observations from a re-analysis of the deposited data

How the results depend on the processing

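Of the 28 lysosomal genes called, 18 kept direction and call under all 13 alternatives, and the other 10 lost the call under 1 or more. No called lysosomal gene changed sign. Genes near 0 that were not called did, such as LAMP2 (-0.03 to 0.03) and GAA (-0.02 to 0.09). With 1 array left out, 15 to 18 of the 54 genes rose and 4 to 6 fell: 5 fell without mimic array 1, 4 without mimic array 2, 5 without mimic array 3, 5 without control array 2 and 5 without control array 3. Over all genes, 11.2% to 14.4% passed with 1 array left out, against 18.0%. With the sample number as a replicate block, 17 rose and 5 fell. ATP6V0E1, SCARB2, TFE3, CTSC, MANBA and LIPA lost the call there (adjusted p 0.0526 to 0.105). From the further lists, SULF2, ARSK, ARSJ, ATP6V1B1, SLC38A9, TMEM192, LAMP3 and LAMTOR2 lost it with the block too (adjusted p 0.0536 to 0.103). Whether the numbers pair the arrays was not settled, and with the block 13.5% of all genes passed. Centring each array on its median moved the median difference of the 54 to 0.054 and that of all genes to -0.03. The adjusted p of ATP6AP1 was 0.0384 when the dimmest 50% was left out, and that of HEXA was 0.0322 with centring and 0.0387 with the dimmest 50% left out. On its other probe set GGA2 stood at -0.0019. Apart from the array left out, causes were not tested. The V0 subunits that rose numbered 4 or 5 and the V1 subunits 3 or 4 in every setting run. None of the 4 sulfatases among the 54 passed in any. Dim genes such as SUMF1, ARSA and TFEB were near the array medians, which limits what a fall could show.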
